A study of Mus musculus with 38 samples.

Results

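The regions described here are 783 distal chromatin peaks that carried less accessibility signal in cortical collecting ducts of mice infused with dDAVP than in ducts of mice infused with saline. They were chosen by 3 criteria in the deposited peak table. The annotation had to be an intron or intergenic, the log2 mean signal over all libraries had to be 4 or more, and the log2 signal in dDAVP minus that in saline had to be -1.2 or less, which leaves at most 43.5% of the saline signal on the linear scale. The table held 270806 peaks, of which 234060 were intronic or intergenic and 65741 of those reached the signal minimum, and the losing peaks were 1.19% of these 65741. By the mirror criterion, 216 distal peaks gained 1.2 or more.

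The cortical collecting duct (CCD) is the part of the collecting duct that lies in the cortex and was dissected by hand from mouse kidney. Per the labels, C57BL/6 wild-type mice received dDAVP or saline by infusion over 5 days. There were 3 dDAVP and 3 saline ATAC-seq libraries, each reaction made from 3 ducts lysed together per the labels' protocol, and 4 dDAVP and 4 saline RNA-seq libraries. The title of dDAVP RNA-seq library 4 gives its CCD number as 4 but its dDAVP number as 3, like that of library 3, so it may not be a separate animal. A further RNA-seq table held 4 MT and 4 WT units of 3 libraries each, where the series' design text gives MT as a β-catenin S552 mutation. The labels of these 24 libraries conflict, giving all of them dDAVP and C57BL/6, while the name of the table gives no vasopressin, so their infusion is uncertain. The labels state neither age nor whether a library or unit was a separate animal, so the p-values measure the spread between these libraries, which may be partly technical.

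dDAVP is a vasopressin analogue that acts on the V2 receptor of principal cells, where the receptor raises cAMP and activates protein kinase A. The kinase drives AQP2 water channels to the apical membrane and, over days, raises the amount of AQP2. Intercalated cells of the same duct secrete acid, base or ammonia and are marked by proton pump subunits, carbonic anhydrase 2 and the factor Foxi1. ATAC-seq uses a transposase to cut DNA that is free of nucleosomes, and peaks away from promoters often mark enhancers, which need not act on the nearest gene. The gene given for a peak below is the one to which the authors' annotation assigned it, not a proven target.

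Few of the losing peaks can be shown as sequence, because the reference sequences used here cover only 250 bases before to 50 bases after gene starts. The following are the plus or minus strand stretches of 4 losing peaks that such windows cover, shown because 1 lies in the third largest loss, 1 in a gene whose RNA libraries did not overlap between groups, 1 in a peak of the strongest signal class, and 1 as a CpG-rich contrast. Sequences are from RefSeq on GRCm38.p6, the same build as mm10, read 5′ to 3′ on the strand of the gene whose start they flank. Capitals mark matches to any of 14 motifs searched on both strands.
Gm32900: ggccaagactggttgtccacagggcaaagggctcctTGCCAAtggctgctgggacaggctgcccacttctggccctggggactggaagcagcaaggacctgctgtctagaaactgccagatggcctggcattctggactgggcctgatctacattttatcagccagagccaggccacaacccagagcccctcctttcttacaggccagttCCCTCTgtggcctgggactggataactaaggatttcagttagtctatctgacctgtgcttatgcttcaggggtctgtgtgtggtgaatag
Ltbp3: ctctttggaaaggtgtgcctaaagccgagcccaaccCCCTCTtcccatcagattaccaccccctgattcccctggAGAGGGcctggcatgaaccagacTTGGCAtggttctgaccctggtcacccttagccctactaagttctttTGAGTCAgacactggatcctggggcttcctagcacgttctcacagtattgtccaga
Epb41l3: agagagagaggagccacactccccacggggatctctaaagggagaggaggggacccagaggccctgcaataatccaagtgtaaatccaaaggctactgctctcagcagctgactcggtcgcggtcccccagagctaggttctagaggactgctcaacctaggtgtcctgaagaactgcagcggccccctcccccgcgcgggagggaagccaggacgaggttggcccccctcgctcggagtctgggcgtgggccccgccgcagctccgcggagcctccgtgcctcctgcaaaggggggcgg
Zzz3: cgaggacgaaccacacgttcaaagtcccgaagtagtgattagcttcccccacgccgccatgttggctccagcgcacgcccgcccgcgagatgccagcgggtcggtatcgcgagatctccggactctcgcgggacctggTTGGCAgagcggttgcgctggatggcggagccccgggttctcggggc

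The Gm32900 window, chr3:101354554-101354853 on the minus strand, lay inside the intergenic peak assigned to Igsf3, was 55.7% GC and held no CpG. Its capitals are an NFI half-site (TTGGCA, here on the opposite strand) at bases 37 to 42 and the CTCF core letters CCCTCT at bases 211 to 216. The Ltbp3 stretch, chr19:5740749-5740949 on the plus strand, belonged to an intron 1 peak and was 54.2% GC. It held an AP-1 match (TGANTCA) at bases 146 to 152, an NFI half-site at bases 99 to 104 and the CTCF core letters at bases 37 to 42 and 76 to 81. The Epb41l3 window, chr17:69156494-69156793 on the plus strand, was 65.7% GC with 18 CpG and no motif match. The Zzz3 stretch, chr3:152396549-152396733 on the plus strand, was 67.0% GC with 23 CpG and held 1 NFI half-site at bases 139 to 144. The Ltbp3, Epb41l3 and Zzz3 peaks each covered a RefSeq start of that same gene, so they were distal by annotation only. These motifs are common: of 32851 RefSeq windows of 300 bases, 27.8% held the CTCF core letters, 14.1% an NFI half-site and 7.81% an AP-1 match, and the median GC content was 52.7%. The other motifs searched were CRE TGACGTCA, the short CRE form TGACG that lies within it, HNF1 GTTAATNAT, AGATAA for GATA factors, grainyhead AACCGGTT, ETS CCGGAAGT, the steroid receptor half-site AGAACA, the estrogen-related receptor site TCAAGGTCA, forkhead TGTTTAC, KLF GGGTGTGG and TEAD GGAATG, and none matched in the 8 stretches of losing peaks that windows covered. Of these 8 stretches, 4 held a match to some motif, and a match is only a match of letters.

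The values that chose the peaks are given as a description with no test. The deposited table gives group means only, so no value per ATAC-seq library is shown. The median log2 signal of the 783 peaks was 3.81 in dDAVP and 5.16 in saline ducts. The difference had a median of -1.31, with quartiles of -1.43 and -1.25, and ranged from -2.58 to -1.2. Most peaks therefore lay close to the threshold: 126 lost 1.5 or more and 8 lost 2 or more. Of the 783, in the authors' deposited table, 589, or 75.2%, had an adjusted p of 0.05 or less, in a set of 65741 distal peaks of which 12.7% were lower at that p. The authors' own log2 fold change, also from the authors' deposited table, had a median of -1.19 over these peaks. At the difference threshold the nearest peaks inside were assigned to Rara, Hmgn5 and Nr3c2, at -1.20003, -1.20006 and -1.20035, and the nearest outside to B930095G15Rik, Ikzf2 and Atp2a2, at -1.19998, -1.1997 and -1.19967. At the signal threshold peaks close to it on the inside were assigned to Bphl and 2610035D17Rik, at 4.0002 and 4.0019, and on the outside to 4930447J18Rik and Mir6769b, at 3.9991 and 3.9974.

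The losing peaks sat at the low end of a distribution that was itself shifted below 0. Of the 65741 distal peaks, 87.2% had a difference below 0, and the median difference was -0.48. Measured from that median, 42 of the 783 peaks were still at -1.2 or less, the most negative at -2.10, and 861 distal peaks stood at 1.2 or more. Whether the overall shift came from the ducts or from the scaling of the libraries was not tested, so each loss below is relative to the authors' normalisation. The peaks were also weak for the most part. Their median log2 signal was 4.64, against 5.28 in other distal peaks, and 518 of them, or 66.2%, were below 5. The share of distal peaks that met the criterion was 1.90% at a signal of 4 to 5, 1.06% at 5 to 6, 0.558% at 6 to 7 and 0.108% at 7 or more, and the spread between libraries at each signal is not known from group means.

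**Figure D1:**
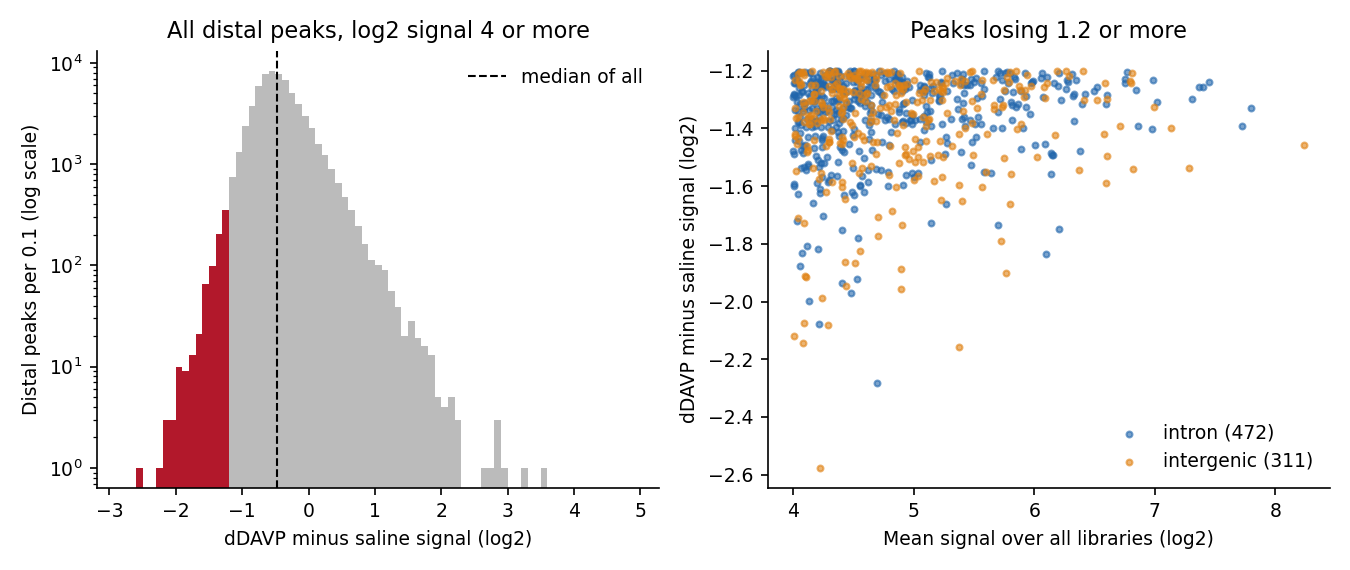
Left, number of distal peaks per 0.1 of the log2 difference, dDAVP minus saline, on a log count axis, with the losing peaks in red and the median of all distal peaks dashed. Right, log2 mean signal of each losing peak (horizontal) against its log2 difference (vertical), by annotation: the red tail lies below a median of -0.48, and most losing peaks have a signal under 5.

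Losing peaks were narrow. Their median width was 321 bases, with quartiles of 199 and 469 bases and a range from 74 to 1530 bases, against a median of 482 bases in the other distal peaks and 558 bases in the gaining peaks. Weak peaks are narrower in general, but the difference was present at each signal level. The medians were 279.5 bases in losing peaks against 347 bases in other peaks at a signal of 4 to 5, 360.5 against 495 bases at 5 to 6, 608 against 691 bases at 6 to 7, and 839 against 979 bases at 7 or more, where only 10 losing peaks lay. Under 150 bases, about the length of DNA on 1 nucleosome as background, were 93 of the losing peaks (11.9%) and 3.93% of the other distal peaks, and over 1 kb were 11 (1.40%) and 11.0%. Peaks are not replicates of a condition, so no test of width or position was made.

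By annotation 472 losing peaks, 60.3%, were intronic and 311, 39.7%, intergenic, against 60.8% and 39.2% of the other distal peaks and 44.9% and 55.1% of the gaining peaks. Of the intronic ones, 253 of 472 (53.6%) were in the first intron, against 45.8% in the other distal and 21.6% in the gaining peaks. A RefSeq gene span was known for the assigned gene of 776 losing peaks. Of these, 416 (53.6%) overlapped that gene, 147 (18.9%) lay outside it but within 10 kb, and 80 (10.3%) lay over 50 kb away. The same shares were 49.6%, 14.8% and 14.3% in the other distal peaks, and 27.9%, 10.8% and 36.8% in the gaining peaks. The losing peaks were thus nearer to their assigned genes than the gaining peaks were. The word distal holds for them only in part, since 153 (19.5%) had their centre within 2 kb of some RefSeq gene start, against 12.6% of the other distal peaks. In 81 of 471 intronic peaks the gene whose intron held the peak was not the gene to which the peak was assigned.

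**Figure D2:**
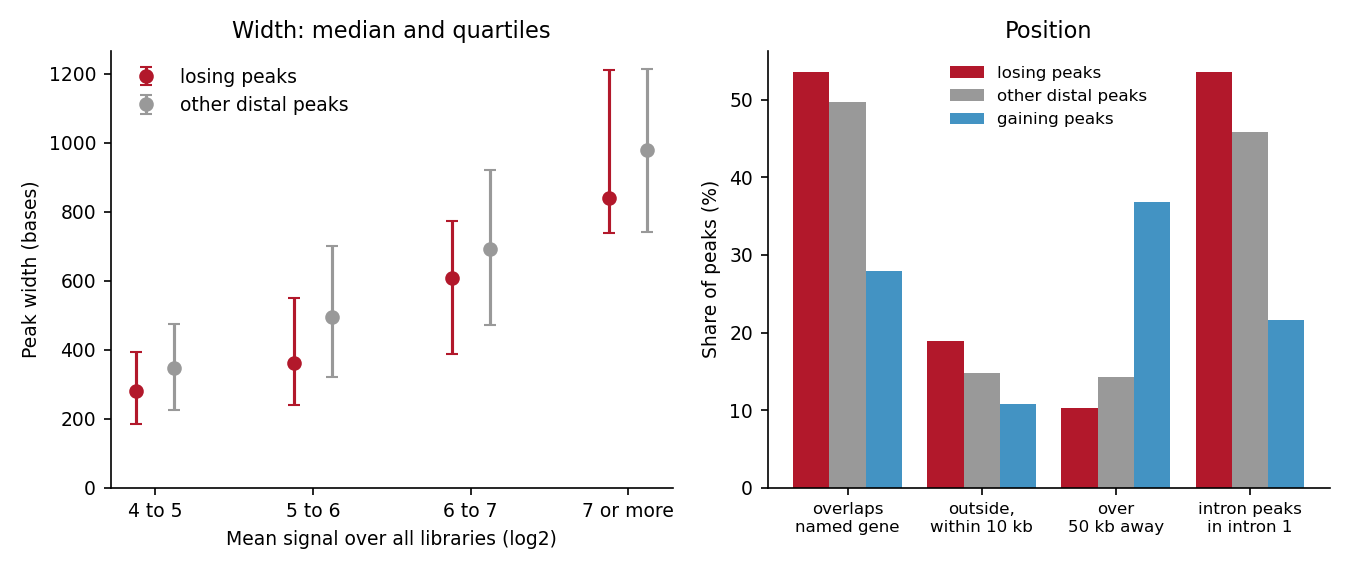
Left, peak width in bases (median with quartiles) of losing and other distal peaks by log2 mean signal. Right, share of peaks in percent that overlap the assigned gene, lie outside it within 10 kb, lie over 50 kb away, or, of intronic peaks, lie in intron 1; losing peaks have the lower median width at each signal level, and 53.6% overlap their gene against 27.9% of gaining peaks.

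On the chromosomes, 85 losing peaks (10.9%) lay on chromosome 11, against 7.22% of the other distal peaks, and 34 (4.34%) on chromosome 1, against 7.07%. Few were close to each other. Another losing peak lay within 10 kb of 71 of them and within 100 kb of 193, and the median gap to the next was 447065 bases. The densest stretch of up to 250 kb was chr11:98757459-98966874, where 8 of 42 distal peaks met the criterion, 1 assigned to Thra, 1 to Cdc6 and 6 to Rara. Thra and Rara encode nuclear receptors, for thyroid hormone and for retinoic acid, and Cdc6 a factor that loads the replicative helicase.

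The largest loss was an intergenic peak 16518 bases from Car2, which encodes carbonic anhydrase 2, a cytosolic enzyme abundant in intercalated cells. This peak, chr3:14917288-14917574, had a log2 signal of 2.43 in dDAVP and 5.00 in saline ducts, a difference of -2.58, so that 16.8% of the saline signal was left. All 18 distal peaks assigned to Car2 were below 0, with a median of -0.58, beside 87.2% and a median of -0.48 for all distal peaks. The second was in intron 4 of Thra, chr11:98757459-98757682, with a log2 signal of 3.14 in dDAVP and 5.42 in saline ducts, a difference of -2.28. The third was the intergenic Igsf3 peak that holds the Gm32900 sequence above, chr3:101354310-101354997, with a log2 signal of 3.93 in dDAVP and 6.09 in saline ducts. Igsf3 encodes a membrane protein with immunoglobulin domains. The strongest saline signal among the first 12 losses was that of the Igsf3 peak, and the other 11 were at 5.56 or less in saline ducts.

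The next of the 12 largest losses lay at or near genes of varied function. A peak assigned to Ece1, which encodes an endothelin-converting enzyme, differed by -2.14 (chr4:137831630-137831903), one assigned to Hnrnpa3, an RNA-binding protein, by -2.12 (chr2:75600590-75600963), and one assigned to Stc2, a secreted stanniocalcin, by -2.08 (chr11:31386473-31386941). A peak in intron 1 of C77080 also differed by -2.08 (chr4:129242139-129242227), and one assigned to Eps8l3 by -2.07 (chr3:107826371-107826792). Then came an intron 1 peak of Pde10a at -2.0 (chr17:8802552-8802744), a peak assigned to Slc25a39, a mitochondrial carrier, at -1.99 (chr11:102409018-102409194), an intron 3 peak of Aldoa, a glycolytic aldolase, at -1.97 (chr7:126797553-126797673), and a Rara peak at -1.96 (chr11:98925916-98926069). These 12 kept between 16.8% and 25.8% of the saline signal.

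The 8 losing peaks of highest signal are given next. The first was an intergenic peak assigned to Crtc1, which encodes a coactivator of the cAMP-responsive factor CREB. This peak, chr8:70447626-70448680, was 1055 bases wide and had a log2 signal of 7.33 in dDAVP and 8.79 in saline ducts, with an adjusted p of 8.06e-10 in the authors' deposited table. A peak of Prr5, a component of the mTORC2 kinase complex, had 6.99 in dDAVP and 8.31 in saline ducts. A peak assigned to Mir6944 within the gene Prr7 had 6.87 in dDAVP and 8.26 in saline ducts. The Epb41l3 peak that holds the sequence above, chr17:69156492-69157752, had 6.70 in dDAVP and 7.94 in saline ducts, and Epb41l3 encodes protein 4.1B, which ties membrane proteins to the cytoskeleton. The others were assigned to Il6ra, the interleukin-6 receptor (6.64 in dDAVP and 7.90 in saline ducts), Map3k5, a stress-activated kinase (6.60 in dDAVP and 7.86 in saline ducts), Ptk7, a Wnt co-receptor, in a peak of 1530 bases in intron 7 of Klc4 (6.52 in dDAVP and 7.82 in saline ducts), and Id1, an inhibitor of helix-loop-helix factors (6.32 in dDAVP and 7.85 in saline ducts). Differences in these 8 lay between -1.54 and -1.24.

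The 783 peaks were assigned to 710 genes, 4.99% of the 14232 genes to which any distal peak of the same signal was assigned. Of these genes, 655 had 1 losing peak, 44 had 2, 8 had 3, 1 had 4 and 2 had 6. Genes with more distal peaks have more chances to hold a losing one, and the median number of distal peaks was 6 in these genes and 2 in the other genes. Differences below 0 were limited neither to the chosen peaks nor to their genes. The other 6696 distal peaks of the same genes had a median difference of -0.55, against -0.46 for the 58262 distal peaks of other genes, and the strongest promoter peak had a median difference of -0.65 in 418 of these genes, against -0.61 in 8388 other genes.

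Pde10a and Rara were the genes with 6 losing peaks. Pde10a encodes a phosphodiesterase that breaks down cAMP and cGMP. Its 6 losing peaks were intronic, spanned chr17:8768917-8913977 and differed by -2.0 to -1.37, and 30 of its 34 distal peaks were below 0, with a median of -0.58. Its strongest promoter peak had a log2 signal of 8.07 in dDAVP and 9.13 in saline ducts, a difference of -1.05 with an adjusted p of 3.14e-06 in the authors' deposited table. At Rara the 6 losing peaks differed by -1.96 to -1.2, all 24 distal peaks were below 0 with a median of -0.95, and the strongest promoter peak had 7.89 in dDAVP and 8.49 in saline ducts, a difference of -0.60 with an adjusted p of 0.054 in the authors' deposited table. All distal peaks of Rara were thus below 0, while those of Pde10a ranged to above 0. Of all 65741 distal peaks, 87.2% were below 0 and the median was -0.48, so the share at Pde10a was close to that of all.

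**Figure D3:**
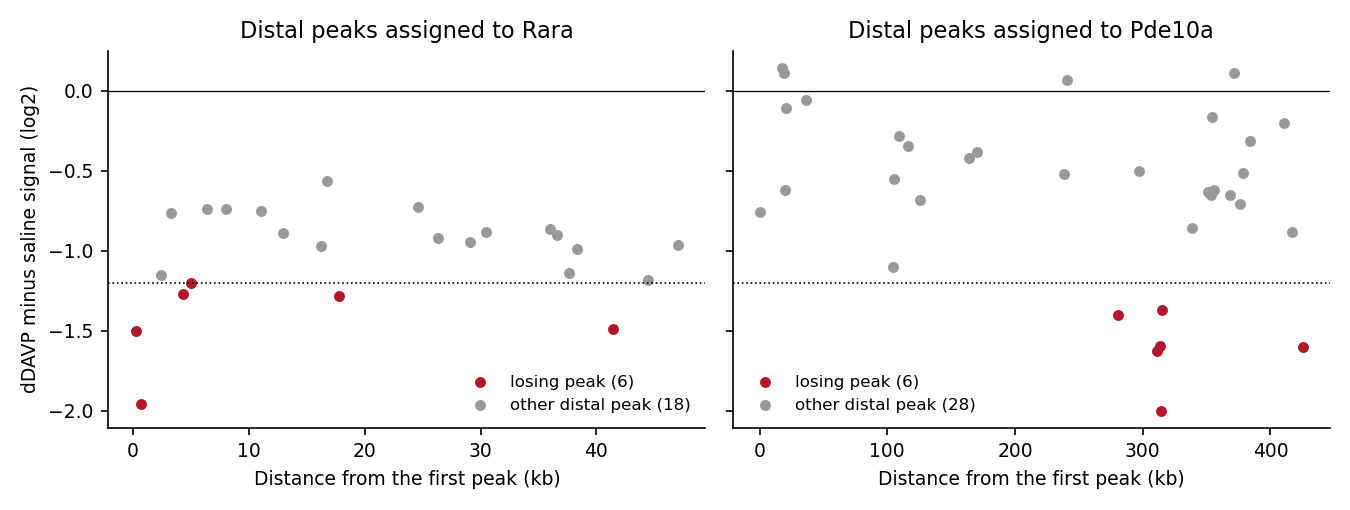
Log2 difference, dDAVP minus saline, of each distal peak assigned to Rara (left) and Pde10a (right) against its distance in kb from the first such peak. Losing peaks are red and the dotted line is -1.2. All 24 Rara peaks and 30 of the 34 Pde10a peaks are below 0, beside 87.2% of all distal peaks.

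Of the genes with 3 losing peaks, Scnn1g and Kcne1 encode ion channel subunits. Scnn1g, the γ subunit of the epithelial sodium channel through which principal cells take up sodium, had its 3 in introns 5, 5 and 6 within chr7:121745882-121750545, at -1.57, -1.56 and -1.46. All 18 of its distal peaks were below 0, beside 87.2% of all distal peaks. The Scnn1g promoter had a log2 signal of 8.52 in dDAVP and 9.09 in saline ducts. Kcne1, an accessory subunit of a voltage-gated potassium channel, had 2 in intron 1 and 1 intergenic, at -1.38, -1.30 and -1.23, and a promoter signal of 8.23 in dDAVP and 9.06 in saline ducts. Other genes with 3 included Cln8, Micall1, Prok2, Smad6 and Tnfsf12, and Gm10532 had 4. Smad6 encodes an inhibitor of BMP signalling, Prok2 a secreted peptide and Tnfsf12 a cytokine of the TNF family. The losing peaks of Prok2 lay up to 228242 bases from the gene. Of the genes with 2, 1600014C23Rik lost 1.66 and 1.6, 1700109G15Rik lost 1.50 and 1.47, 2610035D17Rik lost 1.30 and 1.29, and 4930478P22Rik lost 1.29 and 1.2 on the log2 scale.

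Named cell type and pathway genes were few among the losing peaks. Of the principal cell markers, Aqp2, Scnn1g and Nr3c2 had 5 losing peaks among 251 distal peaks, or 1.99%, beside 1.19% of all distal peaks. The Aqp2 peak was 173 bases in intron 1, chr15:99580323-99580495, with a log2 signal of 3.99 in dDAVP and 5.19 in saline ducts, just past the threshold at -1.2. All 6 distal peaks of Aqp2 were below 0, beside 87.2% of all distal peaks. The Aqp2 promoter had 8.72 in dDAVP and 9.06 in saline ducts, a difference of -0.34 with an adjusted p of 0.399 in the authors' deposited table. Nr3c2, the mineralocorticoid receptor, had 1 losing peak at -1.2. Among transport and hormone response genes, Nedd4l, a ubiquitin ligase that removes sodium channels, had one at -1.22, Ptger4, a prostaglandin E2 receptor, one at -1.25, and Per1 one in intron 18 at -1.70, 3 of 269 peaks or 1.12%.

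Markers shared by both intercalated cell types held 4 losing peaks among 138, or 2.90%, 1 each at Car2, Rhcg, Atp6v0d2 and Foxi1. Rhcg encodes an ammonia channel, and its peak in intron 2, chr7:79605084-79605324, had a log2 signal of 3.14 in dDAVP and 5.07 in saline ducts, a difference of -1.94. The peak of Atp6v0d2, a proton pump subunit, differed by -1.43, that in intron 1 of Foxi1, the master regulator of intercalated cells, by -1.29, and that of Aqp6, a type A marker, by -1.31, the only one of 53 type A peaks. None of the 29 distal peaks of type B markers was among the losing peaks. None was found either among 43 distal peaks of thick limb and distal tubule markers, 17 of proximal tubule, 28 of podocyte, endothelial and stromal and 12 of leukocyte markers. The share over all distal peaks was 1.19%, so lists of this size can easily hold none. With so few peaks per list, single peaks decide these shares.

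Genes of cAMP signalling held 10 losing peaks among 290, or 3.45%, of which 6 were those of Pde10a. The others were at Pde7b, another cAMP phosphodiesterase (-1.55), Crtc1 (-1.46), its relative Crtc3 (-1.40) and Gnas, the stimulatory G protein that couples the V2 receptor to adenylyl cyclase (-1.2). Circadian clock genes held 4 among 113, or 3.54%, at Per1, Dbp (-1.24), Hlf (-1.23) and Bhlhe41 (-1.28). Immediate early genes held 2 among 191, or 1.05%, at Fosb (-1.21) and Atf3 (-1.43). Collecting duct transcription factors held 6 among 706, or 0.850%, at Foxi1, Ehf (-1.33), Irx3 (-1.40), Mecom (-1.24), Id1 (-1.54) and Id2. Id2, like Id1, encodes a protein that blocks helix-loop-helix factors, and its peak, chr12:25098544-25098704, 2452 bases from the gene, had 4.17 in dDAVP and 5.42 in saline ducts, a difference of -1.25. Wnt and Notch genes held 3 among 373, or 0.804%, at Tle3, a corepressor (-1.26), and the Notch ligands Jag2 (-1.27) and Dll4 (-1.34). The cAMP and clock lists had the largest shares, beside 1.19% of all distal peaks. These shares rest on few peaks, and 6 of the 10 cAMP ones are at the single gene Pde10a.

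RNA was measured in other libraries than the accessibility, and it is the test that did not enter the choice of peaks. TPM, a length-scaled measure of abundance, was compared with limma on log2(TPM + 1). The table lists only genes above 10 TPM in all 8 libraries, 5035 in all, and these held 246 of the 710 genes. Only 2 of the 246 passed at an adjusted p of 0.05, Id2 lower and Aqp2 higher, so the RNA of the other 244 was not shown to differ. Over all genes tested 0.695% passed, 0.139% lower and 0.556% higher. In the authors' deposited table, 3 of 245 of these genes were lower and 1 was higher at an adjusted p of 0.05 or less, the lower ones being Id2, Rhcg and Ipo13. These are 1.22% and 0.408%, beside 0.319% lower and 0.718% higher over all 5011 genes with such a p in the authors' deposited table.

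Aqp2 encodes the water channel itself. Its RNA was 51774, 58027, 72251 and 61434 TPM in the dDAVP libraries and 20212, 21874, 20524 and 18074 TPM in the saline libraries. Every dDAVP library was well above every saline library, while the intron 1 peak carried less signal in dDAVP. The Aqp2 promoter difference, -0.34, was smaller in size than the median of -0.61 over the promoters of 8388 other genes. The median of the Aqp2 distal peaks, -0.50, was near the -0.48 of all distal peaks. The means were 60871 ± 8577 TPM in dDAVP and 20171 ± 1573 TPM in saline (SD, n = 4 each), which is 3.00-fold or 1.59 on the log2 scale (SE 0.18, limma adjusted p = 0.0028). Id2 had 186, 200.03, 123 and 163 TPM in dDAVP and 580, 648, 400.03 and 649 TPM in saline libraries. The highest dDAVP library stood below the lowest saline one, saline library 3. Its means were 168 ± 33.9 TPM in dDAVP and 569 ± 117 TPM in saline (SD, n = 4 each), or -1.75 on the log2 scale (SE 0.21, limma adjusted p = 0.0032). Id2 thus had less signal at its losing peak and less RNA, and Aqp2 less signal at its losing peak and more RNA. In whole ducts, fewer cells of a type and less RNA per cell cannot be told apart.

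Epb41l3 and Muc20, the next in order of p, had more RNA with dDAVP but did not pass. Epb41l3 had 2 losing peaks annotated to intron 1, of which the stronger covered a RefSeq start of the gene. Its RNA was 95.5, 100.33, 101 and 57.4 TPM in dDAVP and 45.6, 27.7, 12.9 and 23.9 TPM in saline libraries. The groups did not overlap, although dDAVP library 4 stood far below the other 3, and the log2 difference was 1.75 (SE 0.37, limma adjusted p = 0.0755). It passed without saline library 1, at an adjusted p of 0.0486 by limma. Muc20, a membrane mucin with a losing peak in intron 1, had 626, 659, 504 and 499.5 TPM in dDAVP and 113, 279.87, 141 and 365 TPM in saline libraries. All dDAVP libraries were higher, at 1.49 on the log2 scale (SE 0.33, limma adjusted p = 0.0769), and it passed without saline library 4, at 0.0186 by limma.

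Rhcg and Kcne1 had the smallest p among the remaining genes with less RNA. Rhcg had 1586, 1782, 1835 and 1545 TPM in dDAVP and 2494, 2604, 2190 and 2970 TPM in saline libraries, with no overlap and a log2 difference of -0.60 (SE 0.14, limma adjusted p = 0.104). Kcne1 had 188, 306, 366 and 266 TPM in dDAVP and 581, 496, 415 and 515 TPM in saline libraries, again with no overlap, at -0.86 (SE 0.21, limma adjusted p = 0.108). Neither passed. Adm, which encodes the vasodilator peptide adrenomedullin, had the most negative value, -2.78 on the log2 scale (SE 0.71, limma adjusted p = 0.137). Its libraries ranged from 12.6 to 65.5 TPM in dDAVP and from 54.2 to 448 TPM in saline and overlapped, and its peak lay 1282 bases from the gene at a difference of -1.21.

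The other genes that fill the first 20 by p all had log2 fold changes below 0, and none passed. Psap, a lysosomal activator precursor, was at -0.58, Slc29a1, a nucleoside transporter, at -0.73, Ces1e, a carboxylesterase, at -1.16, and Ltbp3, a binding protein of latent TGF-β, at -0.92. The intron 1 peak of Ltbp3 holds the AP-1 letters shown above and covers a RefSeq start of the gene. Ltbp3 had 16.8, 14.6, 16.0 and 23.8 TPM in dDAVP and 26.1, 29.9, 48.4 and 34.9 TPM in saline libraries. Its groups did not overlap, but the adjusted p by limma was 0.226. Plin2, a lipid droplet coat, was at -0.96, Slc27a1, a fatty acid transporter, at -0.84, Hagh, a glyoxalase, at -0.62, and Lrpprc, a mitochondrial RNA-binding protein, at -1.0. Sh3bp1 (-1.03), Plscr2 (-0.74), Ipo13, a nuclear transport receptor (-0.83), Atxn2, an RNA-binding protein (-0.81), and Ssbp3 (-0.83) complete the list. Their limma adjusted p-values ran from 0.137 to 0.313.

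**Figure D4:**
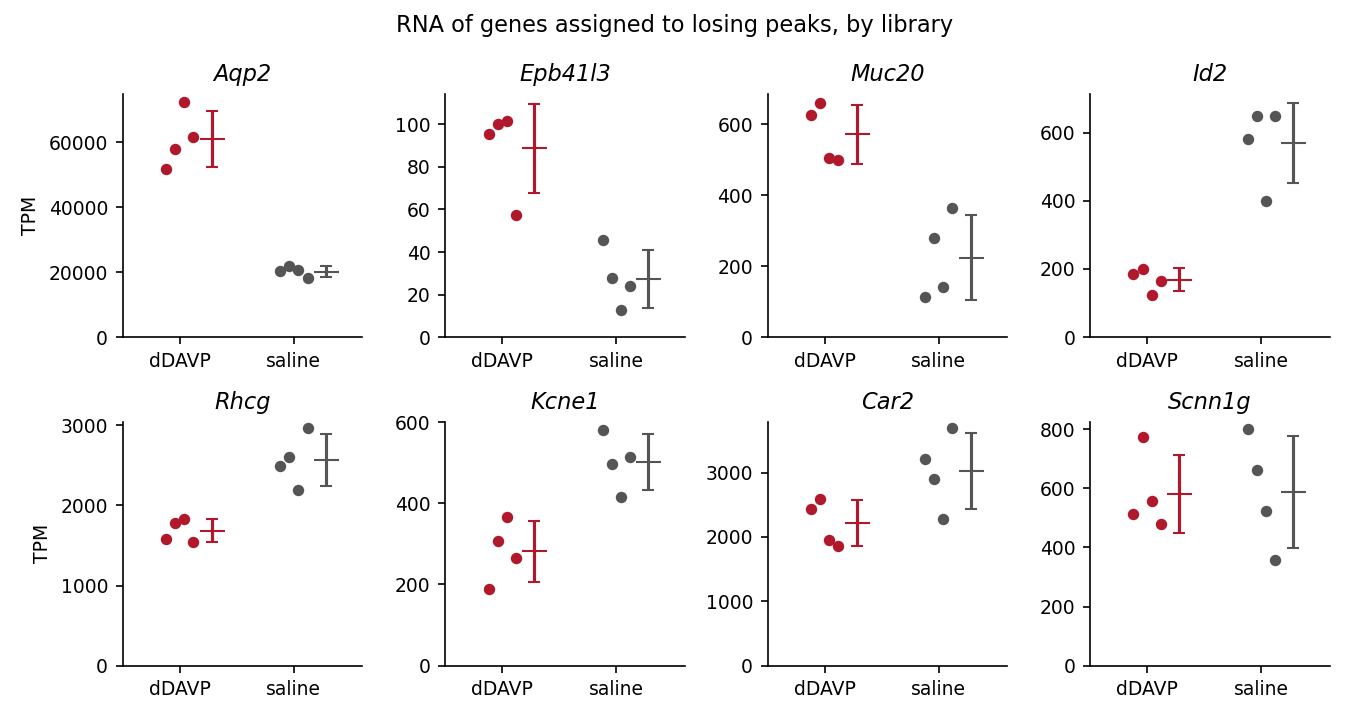
RNA in TPM of 8 genes with a losing peak, 1 point per library, dDAVP left of saline, with the mean and SD of 4 libraries beside the points and axes that start at 0. The dDAVP libraries of Aqp2, Epb41l3 and Muc20 are all above the saline libraries, those of Id2, Rhcg and Kcne1 all below, and those of Car2 and Scnn1g overlap.

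The genes of the largest losses were not shown to change in RNA. Car2 had 2431, 2596, 1955 and 1862 TPM in dDAVP and 3215, 2901, 2281 and 3695 TPM in saline libraries. The saline libraries were mostly higher but overlapped with dDAVP, at -0.44 on the log2 scale (SE 0.18, limma adjusted p = 0.398). Thra was at 0.20, Hnrnpa3 at -0.01, C77080 at -0.39, Slc25a39 at -0.24 and Aldoa at -0.19, each with overlapping groups, and of the genes with the highest signals Prr5 was at 0.17. Scnn1g, with 3 losing peaks, had 512, 773, 555 and 480.09 TPM in dDAVP and 802, 661, 525 and 358 TPM in saline libraries. The groups covered nearly the same range, at 0.02 on the log2 scale (SE 0.24, limma adjusted p = 0.983). Of the other genes with 3, Cln8 was at -1.05 with no overlap (limma adjusted p = 0.315), or -0.66 without saline library 4, Micall1 at -0.53 and Smad6 at -0.36.

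Of the remaining cell type genes, Atp6v0d2 was at -0.53 (limma adjusted p = 0.405), Foxi1 at -0.38, Nr3c2 at -0.28, Nedd4l at 0.09, Aqp6 at 0.16, Gnas at -0.02, Ehf at 0.04 and Mecom at 0.31, and none passed. Pde10a, Rara, Crtc1, Crtc3, Pde7b, Id1, Fosb, Atf3, Per1, Dbp, Hlf, Bhlhe41, Irx3, Tle3, Jag2, Dll4, Ptger4, Igsf3, Ece1, Stc2, Eps8l3, Prok2, Tnfsf12, Map3k5, Il6ra and Ptk7 are not among the 5035 genes of that table, so their response to dDAVP was not analysed here. In the whole lists, 13 of 13 shared intercalated markers were measured, 1 lower, 1 higher, with a median log2 fold change of -0.53, and 14 of 15 principal cell markers, 1 lower, 2 higher, with a median of 0.05. Of 9 cAMP genes 1 was higher, with a median of 0.06. The share over all genes was 0.139% lower and 0.556% higher. Among 4 clock genes (median -0.94), 13 immediate early genes (-1.25) and 5 type B intercalated markers (-0.94) none passed, and none of these has a losing peak. The immediate early genes summed to 943 to 10372 TPM in dDAVP and 3628 to 14129 TPM in saline libraries, so they varied widely within each group. Over all genes tested the median was -0.06. The intercalated median and sum differed in sign: the 13 markers summed to 12961 to 16332 TPM in dDAVP and 10075 to 13056 TPM in saline libraries. The 14 principal cell markers summed to 70680.3 to 94226 TPM in dDAVP and 32353 to 36105 TPM in saline libraries, most of it Aqp2.

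The genes with a losing peak had a median RNA change slightly below that of all genes. Their median log2 fold change was -0.13, with quartiles of -0.38 and 0.13, against -0.06 over all genes tested, -0.07 over 3325 genes that had only other distal peaks, and 0.02 over 29 genes with a gaining peak. Between libraries of a group this median had an SD of 0.11. That SD includes shifts that all genes share, so it does not measure the spread of the gap to all genes, which was not tested. Per library, the median deviation of these genes from their mean over all 8 libraries was -0.04, 0.0037, -0.05 and -0.17 in dDAVP and 0.09, 0.05, -0.03 and 0.29 in saline. These deviations overlapped between the groups, with dDAVP library 4 lowest and saline library 4 highest. Over all genes tested the same deviations were 0.02, 0.0020, -0.02 and -0.07 in dDAVP and 0.07, 0.01, -0.04 and 0.13 in saline. The same 2 libraries had the extreme values there. Below 0 were 163 of 246, or 66.3%, against 56.4% of all genes and 57.1% of the genes with only other distal peaks. At an unadjusted p under 0.05 by limma, 34 were lower and 6 higher, that is 13.8% and 2.44%, where 6.81% and 4.17% of all genes were. Libraries of the groups did not overlap in 23 genes that were lower, or 9.35%, and in 7 that were higher, or 2.85%, against 5.02% and 3.56% of all genes. These are shares of a list and carry no test. The 9 lower ones not named above include Hk1, a hexokinase, Hdac7, a histone deacetylase, and Cttn, an actin regulator, and the higher ones include Pfn1, an actin-binding profilin, and Myl12b, a myosin light chain, chosen for mention after their values were seen.

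The RNA median was nearly the same at a loss of 1.5 or more as over all these genes, and lower in the small sets of 25 and 15 genes below. It showed no steady order with the place of the loss. None of these differences was tested. It was -0.15 for the 40 listed genes with a loss of 1.5 or more and -0.23 for the 25 with at least 2 losing peaks, against -0.13 for the 221 with 1. It was -0.15 for 161 genes with an intronic and -0.08 for 90 with an intergenic losing peak. For 156 genes that a losing peak overlapped it was -0.15, for 52 with one within 10 kb -0.03, and for 44 with one farther off -0.22. The libraries themselves differed: saline libraries 3 and 4 correlated least with the others, at a median of 0.863 and 0.839 against 0.913 to 0.934 for the other 6. Transcripts of 7 listed proximal tubule markers summed to 1929 to 15972 TPM in dDAVP and 1126 to 44853 TPM in saline libraries, with saline library 3 highest, and those of 3 thick limb and distal tubule markers to 429 to 5648 TPM in dDAVP and 547 to 1523 TPM in saline libraries. Their part in these medians was not tested. Without saline libraries 3 and 4, an exclusion chosen after seeing the data, the median was -0.15 against -0.07 over all genes. Then 4 of the genes passed, Aqp2, Id2, Gsta4 and Serpinb1a, the last pair named after their values were seen, and all 4 also passed without saline library 3 alone.

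**Figure D5:**
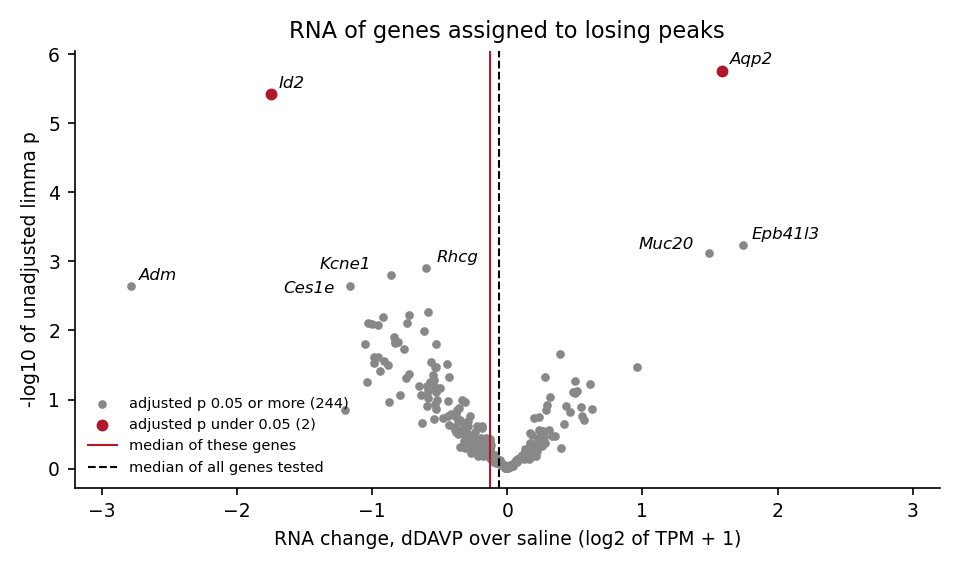
Log2 fold change of RNA, dDAVP over saline (horizontal), against the negative log10 of the unadjusted limma p (vertical) for the 246 listed genes with a losing peak. Aqp2 and Id2 in red pass at an adjusted p of 0.05; the red line is the median of these genes, -0.13, and the dashed line that of all genes tested, -0.06.

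Levels in the β-catenin table were higher for these genes than for the genes with only other distal peaks. The 2 sets were not matched for the number of distal peaks per gene, which had a median of 6 against 2. In WT units, 75.7% of the genes with a losing peak had 1 TPM or more, against 63.1%. In WT units, 401 of the 699 genes found there, or 57.4%, had 10 TPM or more, against 44.0% of the genes with only other distal peaks, and the median was 15.0 against 6.02 TPM. At 100 TPM or more were 115 (16.5%) against 9.28%. Genes that the dDAVP table does not list were often low, such as Pde10a at 5.15 ± 1.08 TPM, Crtc1 at 8.99 ± 0.965 TPM and Rara at 11.4 ± 1.85 TPM (SD, n = 4 WT units). Il6ra, Stc2 and Prok2 were below 1 TPM.

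The β-catenin mutation did not move these genes detectably. Of 529 tested, none passed by limma, and of all 15013 tested 0% passed. At an unadjusted p under 0.05 by limma were 23, or 4.35%, against 4.55% of all genes, and the median log2 fold change was 0.01 for both. The smallest p, named after the values were seen, was that of S100a14, a calcium-binding protein, with 25.4 ± 3.06 TPM in MT and 14.4 ± 1.83 TPM in WT units (SD, n = 4 each), or 0.78 on the log2 scale (SE 0.11, limma adjusted p = 0.536). Pde10a had 5.85 ± 1.44 TPM in MT and 5.15 ± 1.08 TPM in WT units, and Rara 11.6 ± 1.96 TPM in MT and 11.4 ± 1.85 TPM in WT units (SD, n = 4 each).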

How the data were processed

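ATAC-seq and RNA-seq libraries of microdissected mouse cortical collecting ducts were analysed from tables deposited by the authors, with groups taken from the titles. STAR, RSEM, cutadapt 3.4, Bowtie2, MACS2, DiffBind and the build mm10 are named in the submitters' processing notes, with settings not given in the sources used here. Per the file headers, the deposited peak table holds log2 signal per group, a log2 fold change, and an unadjusted and an adjusted p-value of the authors. The authors' deposited annotation, peak coordinates and gene names were used as given. Both RNA-seq tables hold TPM deposited by the authors, which keeps no depth, so depth is unknown and no counting interval is given. The dDAVP table lists genes with a lowest TPM above 10, and its 8 log2 copies were not used. The members and gene lists were chosen with earlier results of these data known. RNA was tested with limma 3.58.1 (eBayes with trend, two-sided, Benjamini-Hochberg over all genes, threshold 0.05) in R 4.3.3 on log2(TPM + 1), for genes with a mean of 1 TPM or more, and with the mean of 3 libraries as 1 unit in the β-catenin table. The procedure was checked on simulated data. The genes and peaks named are the 12 largest losses, the 8 highest signals, up to 15 genes with 2 or more losing peaks, 20 genes by RNA p, each list gene with a losing peak, and 3 peaks on each side of a threshold, of which a few are not reported here. RefSeq promoter windows were overlapped with the losing peaks. Motifs over whole peaks and in the central 400 bases, and the GC content of the central 200 bases, were not analysed, as no genome was used here. Alternatives were other pseudocounts, minima, scalings and thresholds, a replicate block and leaving out each replicate.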

Additional observations from a re-analysis of the deposited data

Results flagged for a closer look

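Of 80 groups of 4 libraries checked, 6 held a library far from the other 3, where chance flags about 1 in 20 groups. In dDAVP libraries this was Epb41l3, where dDAVP library 4 had 57.41 TPM and the other 3 had 95.52 to 101.44 TPM. In saline libraries, library 3 stood apart in Psap, with 919.93 TPM against 596.12 to 649.39 TPM, and in Atp6v0d2, with 259.67 TPM against 446.12 to 452.89 TPM. Saline library 4 stood apart in Ssbp3, with 59.7 TPM against 33.01 to 33.25 TPM, in Aldoa, with 6975.13 TPM against 4766.15 to 5134.32 TPM, and in Cln8, with 85.41 TPM against 22.62 to 32.63 TPM. Saline libraries 3 and 4 are also the ones with the lowest correlation with the rest.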

How the results depend on the processing

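The count of genes with a losing peak that passed in RNA, 2 of 246, changed with the choice of peaks. Over all genes tested 0.695% passed. The count stayed at 2 of 182 for peaks with an adjusted p of 0.05 or less in the authors' deposited table. It was also 2 of 175 for peaks within 50 kb of the start of the assigned gene. It was 10 of 728 listed genes at a difference of -1.0 or less, 0 of 40 at -1.5 or less, 0 of 120 at an authors' deposited fold change of -1.2 or less, and 0 of 77 at a log2 signal of 5 or more. It was 1 of 161 with intronic and 1 of 90 with intergenic peaks only. With the difference centred on the median of distal peaks, chosen after seeing the data, it was 0 of 15 listed genes, and their median RNA log2 fold change was -0.38 in place of -0.13. Leaving out 1 library gave 2 to 4 genes and medians of -0.19 to -0.09, and without saline libraries 3 and 4 it was 4. Genes of the intron that holds the peak gave 2 passing, both higher, and a median of -0.17. Scaling by the median of ratios gave 3 passing, with Epb41l3 at an adjusted p of 0.0445, and moved the median of all genes to 0.00 and that of these genes to -0.07, the same distance apart. With the replicate block, 2 passed and the median was -0.13. Same-numbered libraries did not deviate together throughout (correlations of 0.19, 0.23, 0.09 and -0.15 in the dDAVP table), so the numbers were not taken as pairs. Still, dDAVP libraries 1, 2 and 3 each correlated best with the same-numbered saline library, and dDAVP library 4 with saline library 3. Whether same-numbered libraries share a batch was not tested. In the MT comparison 0 passed in every alternative run. Over all genes, 35 passed, against 8 with the block, 18 without the trend, and from 7 (without dDAVP library 3) to 47 (without saline library 4) with 1 library left out. For 40 named genes under 14 alternatives, 524 of 560 values kept direction and side of the threshold, 3 passed only in the alternative, and 33 changed sign without passing, all in Scnn1g, Nr3c2, Nedd4l, Aqp6, Gnas, Ehf, Hnrnpa3, Prr5 and Thra. Restricting AP-1 to TGACTCA gave 1 of 8 stretches and 5.20% of windows. The motif searches over whole peaks and central 400 bases were not run. Unknown depth and group means alone limit the accessibility values.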
